A study of Homo sapiens with 12 samples.

Results

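E2F transcription factors, the 2 cyclin E genes and the phosphatase gene CDC25A were examined together in CCRF-CEM leukemia cells given the topoisomerase I poison camptothecin. The 10 genes were taken by name, out of 43828 gene places listed across the deposited tables: E2F1, E2F2 and E2F3, known as activators of S phase genes, E2F4 and E2F5, which mostly act in repressor complexes, the atypical repressors E2F7 and E2F8, the cyclins CCNE1 and CCNE2, and CDC25A. All 10 passed the filter on low counts in exon reads and in intron reads. They were chosen with earlier results of these data known, so their counts beside all genes are descriptions. Camptothecin raised 7 of the 10 in exon reads in cells labelled SLFN11 knockout, where 7.3% of all genes tested rose, and 7 in parent cells, where 16.8% rose. The sizes differed between the lines: E2F1, E2F2 and CDC25A rose less in the knockout than in the parent, while CCNE2 rose more. For E2F2 and CCNE2 this difference kept an adjusted p below 0.05 in all 12 fits that left out 1 library. For E2F1 and CDC25A it did not in 4 and 9 of those fits. In intron reads no such difference passed for these genes in the fit of all 12 libraries.

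CCRF-CEM is a human T lymphoblast leukemia line, and SLFN11 is a nuclear protein known to sensitize cancer cells to drugs that damage DNA in replication. SLFN11 knockout cells and the parent cells they derive from (wild type, SLFN11-positive) received 100 nM camptothecin for 4 h, or DMSO, the solvent, with 3 libraries in each of the 4 groups. Camptothecin traps topoisomerase I on DNA. How the knockout was produced, and whether it is 1 clone, is not given in the labels. Nor do they tell whether replicates came from separate cultures, and p-values therefore cover no more than the spread among libraries within groups, which may be technical. That spread was estimated over all 4 groups together, so parent libraries also count in the p-values of knockout comparisons.

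In the textbook scheme, cyclin D kinases start and cyclin E with CDK2 completes the phosphorylation of the retinoblastoma protein, which frees the activator E2Fs to switch on genes for DNA replication, E2F1, E2F2 and the cyclin E genes among them. CDC25A removes the inhibitory phosphates from CDK2 and CDK1, and the checkpoint kinase CHK1 marks it for destruction after DNA damage. E2F7 and E2F8 are themselves E2F targets and repress E2F1 and other S phase genes in a feedback loop.

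The promoters of the genes show how many of them carry the letters of an E2F site near their start, and for that reason they are shown before the expression values. Of the 10 genes, 7 had an entry in the RefSeq promoter set of GRCh38.p14. Within 250 bases before the start, 5 of the 7 held at least 1 of the E2F motifs TTCCCGC and TTGGCGC or their variants TTCGCGC and TTGCCGC on either strand, against 10.9% of 35116 promoters of the same length. E2F1, E2F3, E2F7 and CDC25A had 2 matches each and E2F2 had 1. E2F4 and CCNE1 had none of these letters in this window, and E2F5, E2F8 and CCNE2 were not in the set. The 5 windows with a match lie at chr20:33686386-33686635 (minus strand) for E2F1, chr1:23531234-23531483 (minus strand) for E2F2, chr6:20401629-20401878 (plus strand) for E2F3, chr12:77065570-77065819 (minus strand) for E2F7 and chr3:48188418-48188667 (minus strand) for CDC25A. They are printed 5′ to 3′ with the matched letters in capitals:
E2F1: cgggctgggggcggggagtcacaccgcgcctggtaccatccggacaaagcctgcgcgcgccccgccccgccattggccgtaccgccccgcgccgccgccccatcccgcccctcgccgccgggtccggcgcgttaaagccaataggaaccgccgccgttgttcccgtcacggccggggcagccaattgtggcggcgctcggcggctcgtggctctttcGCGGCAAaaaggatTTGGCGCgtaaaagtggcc
E2F2: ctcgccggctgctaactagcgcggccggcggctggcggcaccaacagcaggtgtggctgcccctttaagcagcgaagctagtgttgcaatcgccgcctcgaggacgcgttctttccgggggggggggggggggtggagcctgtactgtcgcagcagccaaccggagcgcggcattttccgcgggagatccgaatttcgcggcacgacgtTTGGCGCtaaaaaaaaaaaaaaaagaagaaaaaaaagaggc
E2F3: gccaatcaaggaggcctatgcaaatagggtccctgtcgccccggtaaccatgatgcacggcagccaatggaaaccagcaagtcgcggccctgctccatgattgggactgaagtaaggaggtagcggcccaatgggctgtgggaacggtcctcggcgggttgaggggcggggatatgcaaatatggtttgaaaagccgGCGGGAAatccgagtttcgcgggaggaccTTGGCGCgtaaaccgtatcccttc
E2F7: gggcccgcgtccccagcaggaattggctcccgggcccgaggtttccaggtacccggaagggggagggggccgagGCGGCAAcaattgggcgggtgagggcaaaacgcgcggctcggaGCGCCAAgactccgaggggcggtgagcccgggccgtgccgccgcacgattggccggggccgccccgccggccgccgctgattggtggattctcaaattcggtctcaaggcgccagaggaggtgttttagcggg
CDC25A: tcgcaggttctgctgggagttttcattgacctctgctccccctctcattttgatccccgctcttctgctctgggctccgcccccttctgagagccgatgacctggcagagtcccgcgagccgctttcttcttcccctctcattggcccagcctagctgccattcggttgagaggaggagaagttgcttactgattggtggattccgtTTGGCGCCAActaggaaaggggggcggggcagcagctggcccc
In E2F1 the matches end 27 and 13 bases before the start, in E2F2 35, in E2F3 47 and 18, and in E2F7 170 and 127. Those of CDC25A are 1 palindromic stretch read on both strands, which ends 37 and 34 bases before the start. The CCAAT letters stood in 4 of the 7 windows, against 32% of all promoters, and either TTTGAA or its variant TTCGAA, the core of the cell cycle homology region, in 1 of 7, that of E2F3, against 14.3%. A match describes letters and not binding.

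The 12 libraries held 42439957 to 63606344 exon reads each, apart from parent control replicate 1 with 135592046. That library has another name pattern in the labels, and its intron share of 26.31% was the lowest, while the highest was 33.55%, in treated knockout replicate 3. All 12 T lymphoblast markers examined were above 1 CPM (reads per 1000000 reads of a library) in every group, and their summed level was 1742.5 to 1776.2 CPM in treated knockout, 2065.3 to 2073.3 in untreated knockout, 1367.7 to 1382.3 in treated parent and 1715.6 to 1886.4 in untreated parent libraries. The 5 listed B-lineage markers, 2 of them below 1 CPM in every group, summed to 44.7 to 54.4 CPM in knockout and 29.0 to 42.8 CPM in parent libraries, with the treated libraries below the untreated ones in each line. Epithelial and fibroblast markers summed to 7.94 to 9.33 CPM in knockout and 1.94 to 3.24 CPM in parent libraries, and the myeloid and erythroid markers to at most 1.64 and 1.55 CPM, each marker below 1 CPM in every group. The part of these markers in the results was not tested. SLFN11 RNA was still present in the knockout, at 86.9 ± 1.57 CPM without treatment, against 112 ± 4.93 CPM in the untreated parent line (SD, n = 3 libraries each; log2 change -0.37 ± 0.05, SE; edgeR adjusted p = 0.000133). RNA level therefore checks the knockout label only in part. In bulk RNA, fewer cells of a type and less RNA per cell cannot be told apart.

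All levels are exon CPM on the TMM scale unless intron reads are named. Log2 changes are treated over untreated or knockout over parent, called at an adjusted p below 0.05 in edgeR's quasi-likelihood test with Benjamini-Hochberg adjustment over all genes. Per kilobase of exon, E2F1 had the highest level of the 10 genes in every group, at 58.1 ± 3.58 CPM in treated knockout cells, 34.5 ± 0.786 CPM in untreated knockout cells, 72.5 ± 1.32 CPM in treated parent cells and 33.5 ± 2.14 CPM in untreated parent cells (SD, n = 3 each). In untreated parent cells the libraries of E2F1 overlapped with those of E2F4 (32.9 ± 2.09 CPM per kilobase), and those of E2F4 with those of E2F2 (31.5 ± 1.19). In treated knockout cells CCNE2 took the third place at 38.1 ± 1.82 CPM per kilobase, overlapping with CDC25A at 36.0 ± 2.77. In treated parent cells no neighbours in the order overlapped, and E2F2 at 60.5 ± 0.179 and then CDC25A at 44.1 ± 0.639 CPM per kilobase came after E2F1. The lowest levels in treated cells were those of E2F5, at 4.84 ± 0.195 CPM per kilobase in knockout and 4.47 ± 0.288 in parent cells.

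**Figure D1:**
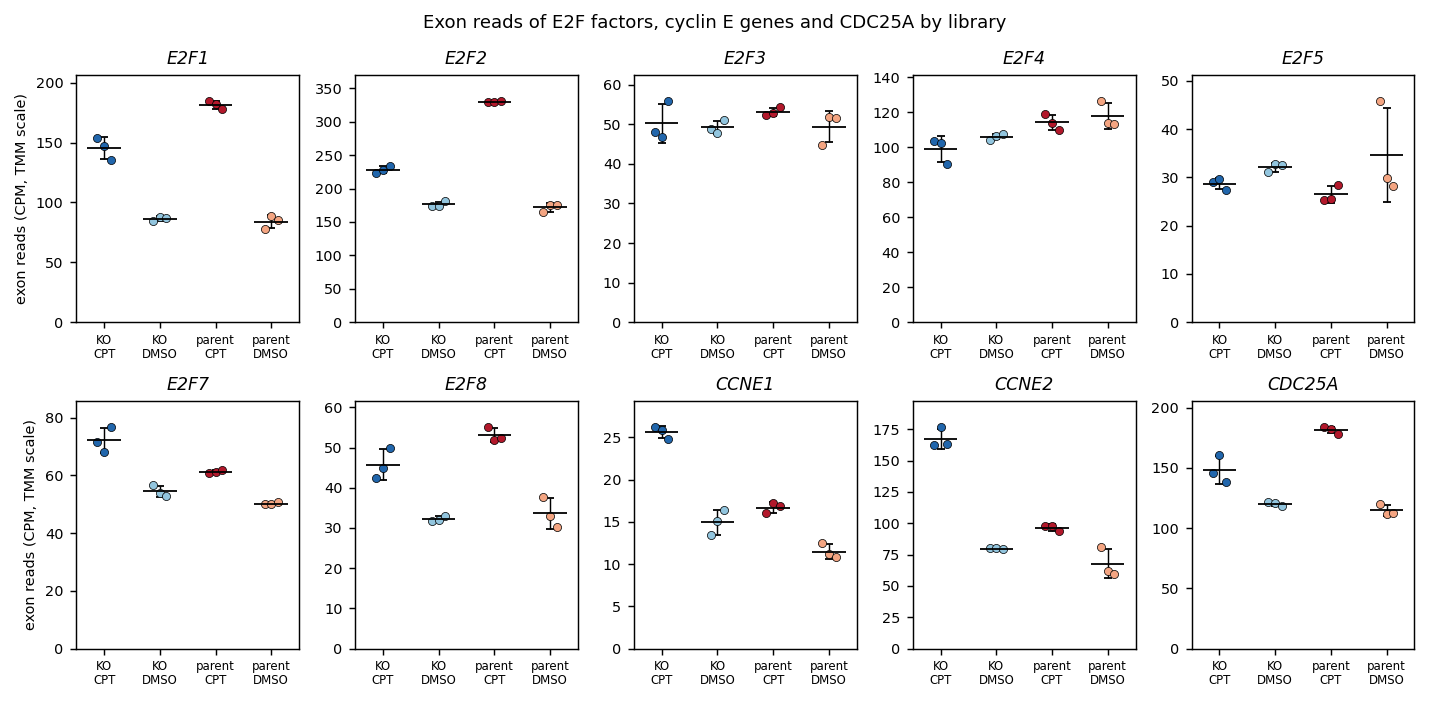
Exon reads (CPM on the TMM scale) of the 10 genes in each library, with the group mean as a line and the SD as a bar (3 libraries a group; CPT, camptothecin; KO, SLFN11 knockout). CCNE1, CCNE2 and E2F7 are highest in treated knockout cells, and E2F1, E2F2, E2F8 and CDC25A in treated parent cells.

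The activators E2F1 and E2F2 rose in both lines. E2F1 (in hg19, as for the genes that follow, chr20:32263488-32274209) had 154, 147 and 136 CPM in treated knockout libraries, against 84.2, 88.0 and 87.1 CPM in untreated knockout libraries. In the parent line it had 185, 182 and 178 CPM in treated libraries, against 78.0, 88.5 and 85.2 CPM in untreated libraries. Every treated library was above every untreated one, the treated knockout libraries were below all treated parent libraries, and the untreated libraries of both lines overlapped. The log2 change of E2F1 was 0.75 ± 0.06 in knockout cells (SE, edgeR adjusted p = 2.73e-07) and 1.11 ± 0.06 in parent cells (edgeR adjusted p = 1.21e-09), the largest rise of the 10 genes there.

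E2F2 (chr1:23832921-23857711) stood at 223, 228 and 233 CPM in treated knockout libraries, against 174, 174 and 181 CPM in untreated knockout libraries. Treated parent libraries held 330, 329 and 331 CPM, against 164, 176 and 175 CPM in untreated parent libraries. All treated knockout libraries were below all treated parent libraries, and the untreated levels of the lines overlapped. The log2 change was 0.37 ± 0.06 in knockout cells (edgeR adjusted p = 0.00014) and 0.94 ± 0.06 in parent cells (edgeR adjusted p = 1.6e-09).

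E2F3 (chr6:20402397-20493940), the third activator, was not called in either line. It had 48.0, 46.9 and 55.9 CPM in treated knockout libraries, against 48.89, 47.75 and 50.96 CPM in untreated knockout libraries, and 52.24, 52.97 and 54.29 CPM in treated parent libraries, against 44.8, 51.8 and 51.6 CPM in untreated parent libraries. The ranges overlapped in knockout cells and lay next to each other without overlap in parent cells. Its log2 changes were 0.03 ± 0.08 in knockout and 0.11 ± 0.07 in parent cells (edgeR adjusted p = 0.84 and 0.302).

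E2F4 (chr16:67226071-67232820), the main E2F of the DREAM repressor complex in quiescent cells, was not called after camptothecin in either line. Its level was 98.9 ± 7.27 CPM in treated knockout cells and 106 ± 1.58 CPM in untreated knockout cells, and 114 ± 4.35 CPM in treated parent cells and 118 ± 7.48 CPM in untreated parent cells (SD, n = 3 each). The log2 changes were -0.10 in knockout and -0.04 in parent cells (edgeR adjusted p = 0.346 and 0.667). With library size alone as the scale their sign turned, to 0.05 in knockout and 0.08 in parent cells.

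E2F5 (chr8:86089459-86129386), like E2F4 a partner of the pocket proteins, had 29.0, 29.7 and 27.4 CPM in treated knockout libraries, against 31.1, 32.7 and 32.5 CPM in untreated knockout libraries. These did not overlap, but the log2 change of -0.16 ± 0.14 was not called (edgeR adjusted p = 0.516). With only the knockout groups fitted, the same change of -0.16 was called (edgeR adjusted p = 0.0496). Parent cells had 25.4, 25.5 and 28.4 CPM in treated libraries, against 45.8, 29.9 and 28.1 CPM in untreated libraries. The value of 45.8 CPM came from the deepest library, and the remaining 2 untreated libraries overlapped with the treated ones. The parent log2 change of -0.40 ± 0.14 was called (edgeR adjusted p = 0.0437), but leaving out parent control replicate 1 gave -0.13 (adjusted p = 0.119), and the call ended in 10 of the 12 fits that left out 1 library (adjusted p of 0.0559 to 0.124 in those). C8orf59 overlaps E2F5, and only 22.9% of the E2F5 exon reads lie where no other gene overlaps. On those reads the change was -0.04 in knockout and -0.07 in parent cells (adjusted p = 0.861 and 0.748). C8orf59 itself changed by -0.45 ± 0.14 in parent cells (edgeR adjusted p = 0.0213).

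The atypical repressors rose in both lines. E2F7 (chr12:77415026-77459359) had 71.6, 68.1 and 76.7 CPM in treated knockout libraries, against 56.5, 53.9 and 52.9 CPM in untreated knockout libraries. In the parent line it had 60.8, 61.1 and 62.1 CPM in treated libraries, against 50.03, 49.9 and 50.9 CPM in untreated libraries. No treated library overlapped with an untreated one of its line, and the treated knockout libraries were above all others. Its log2 changes were 0.41 ± 0.06 in knockout and 0.29 ± 0.06 in parent cells (edgeR adjusted p = 0.000113 and 0.00101). On total gene reads, introns included, the parent change was 0.06 and not called (adjusted p = 0.484).

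E2F8 (chr11:19245609-19263166) was at 42.4, 44.9 and 49.95 CPM in treated knockout libraries, against 31.6, 31.9 and 33.0 CPM in untreated knockout libraries. Treated parent libraries had 55.04, 51.8 and 52.3 CPM, against 37.8, 32.9 and 30.2 CPM in untreated parent libraries. The treated groups stood clear of the untreated ones, and its log2 change was 0.51 ± 0.08 in knockout and 0.65 ± 0.08 in parent cells (edgeR adjusted p = 0.000295 and 7.7e-06). The whole of E2F8 lies within the annotated RP11-428C19.4, whose own group means were 0.214 to 0.444 CPM, so a count free of overlap cannot be had for it.

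Both cyclin E genes rose in both lines. CCNE1 (chr19:30302804-30315214) had 26.2, 25.9 and 24.9 CPM in treated knockout libraries, against 13.4, 15.1 and 16.4 CPM in untreated knockout libraries. Parent libraries had 16, 17.2 and 16.8 CPM when treated, against 12.4, 11.2 and 10.8 CPM when untreated. One untreated knockout library was within the range of the treated parent libraries, and the treated knockout libraries were above all others. The log2 change was 0.78 ± 0.09 in knockout and 0.53 ± 0.09 in parent cells (edgeR adjusted p = 5.37e-06 and 0.000111).

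CCNE2 (chr8:95891997-95908905) reached 162, 177 and 163 CPM in treated knockout libraries, against 80.1, 80.1 and 79.3 CPM in untreated knockout libraries. In parent cells it had 98.0, 98.1 and 93.5 CPM in treated libraries, against 80.8, 61.9 and 59.9 CPM in untreated libraries. Treated knockout cells were far above the rest, and the highest untreated parent value was again that of the deepest library. CCNE2 changed by 1.07 ± 0.09 in knockout cells (edgeR adjusted p = 2.17e-07), the largest rise of the 10 genes there, and by 0.51 ± 0.09 in parent cells (edgeR adjusted p = 0.000224). INTS8 and NDUFAF6 overlap CCNE2, and 61.5% of its exon reads lie where no other gene overlaps. On those reads the changes were 1.10 in knockout and 0.47 in parent cells (adjusted p = 2.02e-05 and 0.00701).

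CDC25A (chr3:48198635-48229891) had 145, 161 and 139 CPM in treated knockout libraries, against 122, 121 and 118 CPM in untreated knockout libraries. Treated parent libraries had 184, 182 and 179 CPM, against 120, 112 and 112 CPM in untreated parent libraries. The treated knockout libraries were above the untreated ones of both lines and below the treated parent libraries, the order also seen for E2F1 and E2F2. The log2 change was 0.31 ± 0.06 in knockout and 0.66 ± 0.06 in parent cells (edgeR adjusted p = 0.00228 and 3.48e-07).

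Counted over exon reads of knockout cells, 7 of the 10 genes rose, where 16.6% of the 23546 genes tested were called, 7.3% higher and 9.28% lower. None of the 10 fell there by edgeR, 0 also at an unadjusted p under 0.05 and 0 by DESeq2. In parent cells 7 rose and 1 fell, against 33.9% called among all genes, 16.8% higher and 17.1% lower. Treated and untreated libraries did not overlap for 9 of the 10 genes in knockout cells and for 8 in parent cells, beside 38.5% and 44.8% of all genes. The median log2 change of the 10 genes was 0.39 in knockout and 0.52 in parent cells, beside 0.018 and 0.013 for all genes. Without parent control replicate 1 the counts called were 8 in knockout and 7 in parent cells, since E2F5 passed in knockout cells (-0.15, adjusted p = 0.0463) and dropped out in parent cells.

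Whether the lines responded differently was tested as knockout response minus parent response, where 6.32% of all genes were called, 1.84% higher and 4.48% lower in the knockout. Of the 10 genes 1 was higher and 3 were lower. E2F2 had the clearest difference, -0.57 ± 0.08 on the log2 scale (SE, edgeR adjusted p = 0.000187). E2F1 differed by -0.36 ± 0.09 (adjusted p = 0.021) and CDC25A by -0.36 ± 0.09 (adjusted p = 0.0205). CCNE2 differed the other way, by 0.56 ± 0.12 (edgeR adjusted p = 0.0117).

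The calls for E2F2 and CCNE2 held in all 12 fits that left out 1 library, with CCNE2 at 0.41 without parent control replicate 1. The E2F1 call ended in 4 of those fits, without treated parent replicate 1 or 2 or untreated knockout replicate 2 or 3, with adjusted p of 0.0619 to 0.0799, and its value stayed between -0.40 and -0.31. The CDC25A call ended in 9 of the 12 (adjusted p of 0.0506 to 0.0799, values of -0.42 to -0.31), and with total gene reads (-0.28, adjusted p = 0.0724). On reads that no other gene overlaps, the CCNE2 difference was 0.63 (adjusted p = 0.0356), and its overlapping neighbour INTS8 differed by 0.51 ± 0.12 (edgeR adjusted p = 0.0168). CCNE1 (0.25 ± 0.12), E2F7 (0.12 ± 0.08) and E2F8 (-0.15 ± 0.11) were not called for a difference of exon responses (adjusted p = 0.278, 0.474 and 0.535). E2F7 was called on total gene reads (0.32, adjusted p = 0.0304) and E2F8 without parent control replicate 1 (-0.24, adjusted p = 0.0496).

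Before treatment 1 of the 10 genes was called between the lines, CCNE1, higher by 0.38 ± 0.09 in untreated knockout than in untreated parent cells (SE, edgeR adjusted p = 0.00625). Of all genes 15.7% were called, 8.26% higher and 7.44% lower in the knockout. The libraries of the lines did not overlap for 3 of the 10 genes, beside 32.5% of all genes. The CCNE1 call ended without untreated knockout replicate 3 (0.30, adjusted p = 0.0509) and when only the 2 untreated groups were fitted (adjusted p = 0.0521). CCNE2 was 80.1, 80.1 and 79.3 CPM in untreated knockout libraries, against 80.8, 61.9 and 59.9 CPM in untreated parent libraries, a difference of 0.24 ± 0.09 (edgeR adjusted p = 0.0802). Without the deepest parent library it was 0.39 (adjusted p = 1.54e-07). E2F1, E2F2 and CDC25A differed by 0.04 ± 0.06, 0.04 ± 0.06 and 0.07 ± 0.06.

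Treated knockout against treated parent cells, a comparison that shares its libraries with both responses, set the genes in 2 directions. CCNE2 was higher by 0.79 ± 0.09, CCNE1 by 0.62 ± 0.08 and E2F7 by 0.23 ± 0.06 in treated knockout cells (edgeR adjusted p = 3.18e-06, 2.89e-05 and 0.00598). E2F2 was lower by 0.53 (log2 difference -0.53 ± 0.06), E2F1 at -0.32 ± 0.06, CDC25A at -0.29 ± 0.06 and E2F4 at -0.21 ± 0.07 (edgeR adjusted p = 1.47e-06, 0.000961, 0.00175 and 0.0255). Of all genes 28.0% were called here, 13.4% higher and 14.6% lower, and the treated libraries of the lines did not overlap for 47.4% of them and for 8 of the 10. The E2F4 call ended without treated parent replicate 1 or 2 or treated knockout replicate 3 (adjusted p of 0.0695 to 0.115) and with library size alone (-0.09, adjusted p = 0.209).

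Intron reads, which come mostly from unspliced RNA, gave another order. CCNE2, CCNE1 and E2F1 rose in intron reads of both lines. CCNE2 introns changed by 1.04 ± 0.09 in knockout and 0.67 ± 0.09 in parent cells (edgeR adjusted p = 5.91e-08 and 9.32e-06), and CCNE1 introns by 0.79 ± 0.12 and 0.61 ± 0.12 (adjusted p = 5.98e-05 and 0.000664). E2F1 introns changed by 0.46 ± 0.07 in knockout and 0.57 ± 0.07 in parent cells (edgeR adjusted p = 0.0001 and 3.26e-06).

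Introns of E2F1, E2F2, CDC25A, E2F7 and E2F8 in the parent had smaller or opposite changes than the exons. In knockout cells CDC25A introns had 89.4, 96.6 and 85.1 CPM in treated libraries, against 75.3, 76.6 and 78.5 CPM in untreated libraries, without overlap (0.24 ± 0.07, edgeR adjusted p = 0.022). That call ended in 4 of the 12 fits without 1 library, those without untreated knockout replicate 1, 2 or 3 or treated knockout replicate 2 (adjusted p of 0.0523 to 0.118). In parent cells CDC25A introns stood at 78.7, 82.6 and 82.0 CPM in treated libraries, against 77.7, 82.5 and 77.7 CPM in untreated libraries, and these overlap (0.03 ± 0.07, edgeR adjusted p = 0.781). E2F2 introns changed by 0.18 ± 0.06 in knockout cells, which was not called (edgeR adjusted p = 0.0521). The call appeared without parent control replicate 1 or treated knockout replicate 3 (adjusted p = 0.0139 and 0.0106). It also appeared with library size alone, on the exon scale and on reads no other gene overlaps (adjusted p = 0.00552, 0.0272 and 0.0483). In parent cells E2F2 introns had 202, 194 and 184 CPM in treated libraries, against 167, 167 and 172 CPM in untreated libraries, without overlap (0.20 ± 0.06, adjusted p = 0.0258). That small E2F2 rise lost its call without parent control replicate 2, treated parent replicate 1 or treated parent replicate 2 (adjusted p of 0.0784 to 0.135). So it did on the exon scale and with no filter (adjusted p = 0.052 and 0.0873). The difference of E2F2 intron responses was -0.01 ± 0.09 and was not called (edgeR adjusted p = 0.965).

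E2F7 introns were higher in treated knockout libraries, at 181, 176 and 207 CPM, against 151, 145 and 145 CPM in untreated knockout libraries. In parent cells they were lower, at 120, 127 and 131 CPM in treated libraries, against 141, 145 and 143 CPM in untreated libraries. The 2 lines moved in opposite directions without overlap. The knockout rise was 0.36 ± 0.07 (edgeR adjusted p = 0.000893). The parent change of -0.19 ± 0.07 was at the threshold (edgeR adjusted p = 0.0495) and lost its call in 9 of 12 fits without 1 library (adjusted p of 0.0565 to 0.199), and with library size alone it was -0.07 (adjusted p = 0.516). The difference of responses, 0.54 ± 0.10, was called (edgeR adjusted p = 0.00148), also in every fit without 1 library.

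E2F8 introns changed by 0.52 ± 0.09 in knockout cells (edgeR adjusted p = 0.000493) and by 0.10 ± 0.09 in parent cells (adjusted p = 0.466), with a difference of 0.41 ± 0.13 that was not called (adjusted p = 0.0716; 0.0482 without treated knockout replicate 1). E2F3 introns rose in knockout cells by 0.37 ± 0.11 (edgeR adjusted p = 0.0231), with 196, 190 and 251 CPM in treated libraries against 161, 175 and 158 CPM in untreated libraries. The highest of these was the library with the highest intron share, and without it the change of 0.23 was not called (adjusted p = 0.135), nor was that of 0.35 or 0.33 without untreated knockout replicate 1 or 3 (adjusted p = 0.081 and 0.0947). In parent cells the E2F3 intron change was 0.26 ± 0.11 and not called (adjusted p = 0.0746), but it was called with library size alone (0.38, adjusted p = 0.0172), with no filter, on reads no other gene overlaps, with the replicate block, and without parent control replicate 3 or treated knockout replicate 3 (adjusted p of 0.00943 to 0.0466 in these).

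Counted over the 10 genes, 7 rose in knockout introns, where 16.9% of 19908 genes were called, 7.85% higher and 9.05% lower. In parent introns 4 rose and 1 fell, where 26.3% were called, 12.1% higher and 14.2% lower. E2F7 was the 1 gene of the 10 called for a difference of intron responses, against 5.82% of all genes, 3.0% higher and 2.81% lower. Between untreated lines the 1 call of the 10 in introns was CCNE1, higher by 0.57 ± 0.12 in the knockout (edgeR adjusted p = 0.00254), against 14.6% of all genes, 8.17% higher and 6.43% lower.

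**Figure D2:**
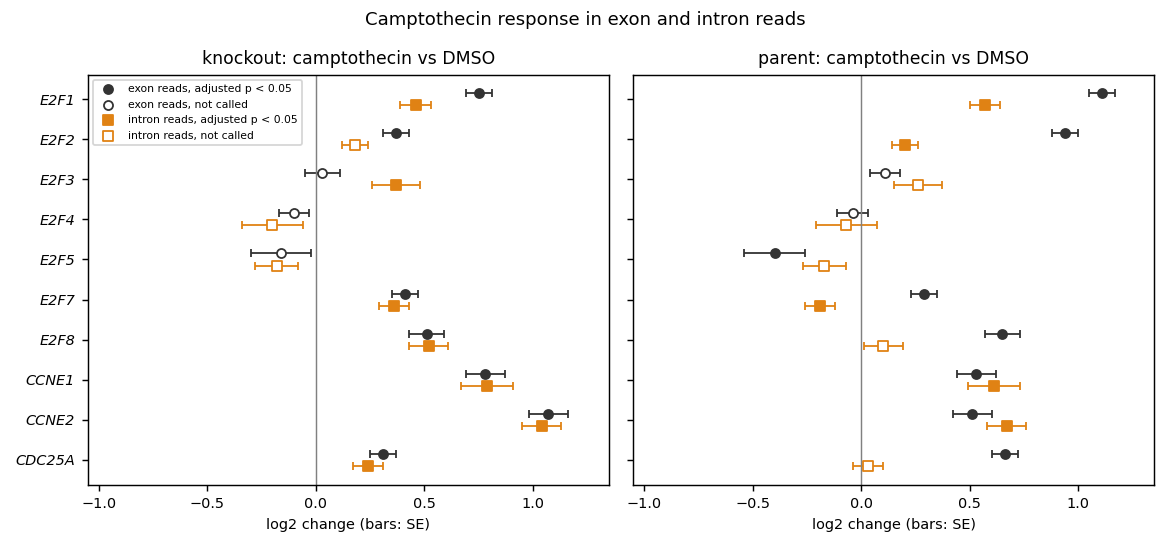
Log2 change after camptothecin in exon reads (circles) and intron reads (squares) of the 10 genes, in knockout cells (left) and parent cells (right). Bars are SE, and filled symbols passed an adjusted p below 0.05. E2F1, E2F2, E2F7, E2F8 and CDC25A have their exon symbol to the right of the intron symbol in parent cells, and both symbols lie close together for CCNE1 and CCNE2 in both lines.

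The exon change was set directly against the intron change of the same gene in a joint fit, with each library as a block. In parent cells the exon change exceeded the intron change for E2F2 by 0.76 ± 0.07, CDC25A by 0.64 ± 0.07, E2F8 by 0.57 ± 0.09, E2F1 by 0.56 ± 0.08 and E2F7 by 0.49 ± 0.07 (SE, edgeR adjusted p = 7.68e-06, 1.79e-05, 0.000466, 0.000217 and 0.000117). These 5 calls held in each of the 12 fits without 1 library, against 18.8% called among all 17351 genes tested, 9.08% higher and 9.71% lower. CCNE1 (-0.06 ± 0.13) and CCNE2 (-0.14 ± 0.08) were not called.

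In libraries, E2F2 had 2.60, 2.63 and 2.68 exon reads per intron read in treated knockout cells, against 2.39, 2.42 and 2.60 in untreated knockout cells. Parent libraries had 3.96, 4.05 and 4.21 when treated, against 2.63, 2.48 and 2.34 when untreated. The ranges of the knockout libraries met at 2.60, and the treated parent libraries were above all others.

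CDC25A had 3.78, 3.93 and 3.46 exon reads per intron read in treated knockout libraries, against 3.92, 3.73 and 3.73 in untreated knockout libraries. In parent cells the ratio was 5.64, 5.26 and 5.09 in treated libraries, against 4.14, 3.18 and 3.32 in untreated libraries. Again the knockout groups overlapped and the treated parent libraries were above all others.

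In knockout cells 2 of the 10 genes were called in this fit, where 7.28% of all genes were, 2.02% higher and 5.26% lower. E2F1 had the higher exon change, by 0.29 ± 0.08 (edgeR adjusted p = 0.0387), with 2.28, 2.34 and 2.24 exon reads per intron read in treated knockout libraries against 1.90, 2.07 and 2.02 in untreated knockout libraries. E2F3 had the lower one, -0.32 ± 0.08 (edgeR adjusted p = 0.0232). The first call ended in 9 and the second in 3 of the 12 fits without 1 library, the second without untreated knockout replicate 1 or 3 or treated knockout replicate 3.

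Knockout minus parent, the exon excess differed by -0.57 ± 0.10 for CDC25A, by -0.57 ± 0.11 for E2F2 and by -0.43 ± 0.09 for E2F7 (edgeR adjusted p = 0.0196, 0.0241 and 0.0489), where 0.628% of all genes were called, 0.242% higher and 0.386% lower. E2F8 had -0.57 ± 0.13 (adjusted p = 0.0567). Without 1 library the values stayed between -0.60 and -0.51 for CDC25A and between -0.63 and -0.51 for E2F2, but the calls ended in 8 of 12 fits for each and in 11 of 12 for E2F7, with adjusted p up to 0.0871, 0.096 and 0.166. Without parent control replicate 1, 4 of the 10 genes were called, E2F8 included (-0.56, adjusted p = 0.0163).

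**Figure D3:**
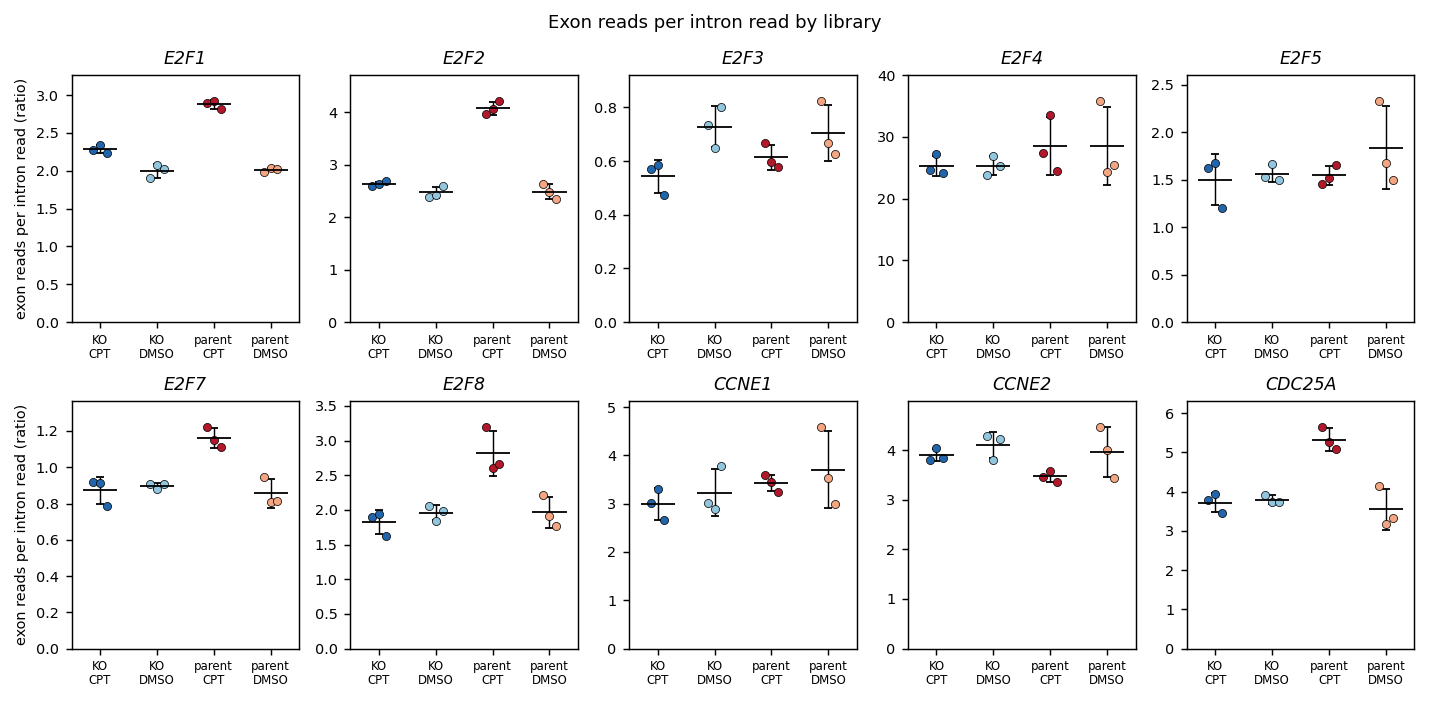
Exon reads per intron read of the 10 genes in each library, with the group mean as a line and the SD as a bar (3 libraries a group; CPT, camptothecin; KO, SLFN11 knockout). For E2F1, E2F2, E2F7, E2F8 and CDC25A the treated parent libraries are above all other libraries, and for CCNE1 and CCNE2 the groups overlap or lie near each other.

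Across the 12 libraries, log2 CPM of most of the 10 genes fell into patterns, given as descriptions because libraries of a group share their treatment. E2F1 with CDC25A and E2F2 with CDC25A had a Pearson r of 0.96 each, E2F1 with E2F2 0.95 and E2F8 with each of these 3 between 0.92 and 0.93. CCNE1 with CCNE2 had 0.97, and E2F7 had 0.93 with each of them. Between these patterns r ran from 0.40 for E2F2 with CCNE2 up to 0.70 for E2F7 with E2F8 and 0.73 for E2F1 with E2F7. E2F3, E2F4 and E2F5 were in neither pattern. With the genes of the patterns E2F3 had r of -0.02 to 0.55, E2F4 of -0.70 to 0.0 and E2F5 of -0.68 to -0.25.

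Likeness was ranked over the 12053 genes that averaged 5 CPM or more. Those most like E2F1 over the 12 libraries were KIAA1737 (r = 0.991) and ABHD11 (0.990), and those most like E2F2 were RELB (0.995), a subunit of NF-kappaB, and RHBDD2 (0.994). CDC25A was closest to NEU1 (0.989) and LTB (0.989), CCNE1 to SLC20A1 (0.985) and DUSP3 (0.976), and CCNE2 to TSPAN2 (0.989) and ZDHHC23 (0.977). ZDHHC23 was also the closest to E2F7 (0.976), followed by RP11-20B24.4 (0.970). E2F8 was closest to ZBTB9 (0.973) and SDHAP3 (0.971), E2F5 to NTAN1 (0.978) and RHEB (0.976), E2F4 to WDR46 (0.957) and EXOSC1 (0.955), and E2F3 to EP300 (0.916) and FOXP4 (0.911).

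The genes around these members were counted in 5 lists, with 16.6% of all genes called in knockout and 33.9% in parent cells as background. These lists, too, were chosen with earlier results of these data known. Of 40 G1/S genes known as E2F targets, 21 rose and 3 fell in knockout cells (median log2 change 0.25) and 21 rose and 5 fell in parent cells (median 0.24). CDC6, which loads the replicative helicase, had 200 ± 4.61 CPM in treated parent cells and 111 ± 13.6 CPM in untreated parent cells (SD, n = 3 each; log2 change 0.85 ± 0.07, edgeR adjusted p = 1.64e-07). CDT1, its partner in licensing, rose by 0.66 ± 0.06 in parent cells (adjusted p = 1.64e-07), and PCNA, the sliding clamp, by 0.60 ± 0.06 in knockout cells (adjusted p = 2.98e-06). POLA1, the catalytic subunit of DNA polymerase alpha, had log2 changes of -0.50 ± 0.08 in knockout and -0.62 ± 0.08 in parent cells (edgeR adjusted p = 0.000227 and 8.53e-06). Counted on total gene reads, introns included, the POLA1 change was 0.03 in knockout cells (adjusted p = 0.867) and -0.32 in parent cells (adjusted p = 0.00242). In the difference of responses 2 of the 40 were called, RFC4 (0.46 ± 0.13) and PCNA (0.31 ± 0.09), both higher in the knockout response, against 6.32% of all genes. Those calls ended in 8 and 9 of the 12 fits without 1 library (adjusted p up to 0.122 for RFC4 and 0.139 for PCNA). Without parent control replicate 1, a setting planned for the fits and split by direction for the lists after seeing the data, there were 30 higher and 5 lower in knockout cells, 28 higher and 5 lower in parent cells, and 4 higher and 9 lower in the difference.

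Of 20 G2/M genes known as DREAM and FOXM1 targets, 19 fell in each line (edgeR; median log2 change -1.23 in knockout and -1.14 in parent cells). PLK1, the mitotic kinase, had 12.4 ± 1.70 CPM in treated knockout cells and 78.0 ± 3.35 CPM in untreated knockout cells, and 12.8 ± 0.251 CPM in treated parent cells and 84.9 ± 9.0 CPM in untreated parent cells (SD, n = 3 each). CDC20, the activator of the anaphase promoting complex, was the 1 gene of the 20 called for a difference of responses (-0.41 ± 0.08, edgeR adjusted p = 0.00513), against 6.32% of all genes, but without parent control replicate 1 the difference had 1 of the 20 higher and 10 lower. The E2F and cyclin E genes and the mitotic genes thus had medians of opposite sign in both lines.

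The partners of E2F, the pocket proteins and the DREAM subunits had 2 of 15 higher and 5 lower in knockout cells, and 2 higher and 6 lower in parent cells (4 and 6 in knockout, 5 and 6 in parent cells without parent control replicate 1). With library size alone the balance turned in knockout cells, at 5 higher and 3 lower, and was 5 and 5 in parent cells. RB1, the retinoblastoma protein gene, had 143 ± 10.4 CPM in treated knockout cells and 260 ± 3.0 CPM in untreated knockout cells, and 94.5 ± 5.62 CPM in treated parent cells and 197 ± 18.2 CPM in untreated parent cells (SD, n = 3 each). Its log2 change was -0.86 ± 0.07 in knockout and -1.06 ± 0.07 in parent cells (edgeR adjusted p = 3.29e-07 and 1.29e-08), and on total gene reads it was -0.53 in knockout cells. E2F6, a repressor E2F that does not bind pocket proteins, rose by 0.28 ± 0.08 in knockout and 0.42 ± 0.08 in parent cells (adjusted p = 0.0228 and 0.000517), and the knockout call ended in 5 of the 12 fits without 1 library (adjusted p of 0.052 to 0.0862). LIN37, a DREAM subunit, rose by 0.83 ± 0.11 in parent cells (adjusted p = 1.76e-05), and its response in the knockout minus that in the parent was -0.68 ± 0.16 (adjusted p = 0.0148), not called without treated parent replicate 2 or untreated knockout replicate 3 (adjusted p = 0.0593 and 0.0562). In the difference of responses 2 of the 15 were higher and 1, LIN37, was lower, against 6.32% of all genes. The higher ones were TFDP1 and TFDP2, each at 0.29 ± 0.08 (edgeR adjusted p = 0.0315 and 0.0378). Each of those calls ended in 8 of the 12 fits without 1 library.

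The kinases, D cyclins and inhibitors of G1 had 2 of 12 tested genes higher and 5 lower in knockout cells, and 2 higher and 4 lower in parent cells. CDKN1A, the p21 inhibitor of cyclin E with CDK2, had 15.6 ± 2.13 CPM in treated knockout cells and 7.08 ± 0.811 CPM in untreated knockout cells, and 22.2 ± 0.582 CPM in treated parent cells and 1.97 ± 0.615 CPM in untreated parent cells (SD, n = 3 each). Its response differed by -2.42 ± 0.25 (edgeR adjusted p = 1.56e-05), and untreated knockout cells were higher by 1.91 ± 0.19 (adjusted p = 3.44e-06). Of the 12 genes 1 was higher and 3 were lower in the difference of responses, against 6.32% of all genes. The higher one was CDKN2C (0.43 ± 0.12, edgeR adjusted p = 0.0409), a call that ended in 9 of the 12 fits without 1 library. Between untreated lines 3 of the 12 were higher and 0 lower in the knockout, against 15.7% of all genes. CDK6, a cyclin D kinase, had log2 changes of -1.18 ± 0.07 in knockout and -1.41 ± 0.07 in parent cells (adjusted p = 2.03e-09 and 1.31e-10), and on total gene reads the knockout value was -0.75. CDK2 rose by 0.29 ± 0.07 in knockout cells (edgeR adjusted p = 0.0114), a call that ended in 4 of the 12 fits without 1 library (adjusted p of 0.052 to 0.0673).

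Genes for the turnover of cyclin E and CDC25A and for the phosphorylation of their kinases had 1 of 15 higher and 6 lower in knockout cells, and 2 higher and 9 lower in parent cells. With library size alone the balance in knockout cells turned, to 4 higher and 1 lower with a median of 0.0 in place of -0.15, and in parent cells 3 were higher and 7 lower. PKMYT1, which puts inhibitory phosphates on CDK1, rose by 0.63 ± 0.08 in knockout and 0.99 ± 0.08 in parent cells (edgeR adjusted p = 1.56e-05 and 4.01e-08). CHEK1, the kinase that marks CDC25A, rose by 0.24 ± 0.07 in parent cells (adjusted p = 0.01), but by 0.18 without parent control replicate 2, which was not called (adjusted p = 0.0664). CUL3, a ubiquitin ligase scaffold with cyclin E among its substrates, fell by 0.72 ± 0.08 on the log2 scale in parent cells (adjusted p = 4.34e-06), with a change of -0.33 on total gene reads (adjusted p = 0.000878). In the difference of responses 2 of the 15 were higher and 1 lower, against 6.32% of all genes. SKP2, the F-box protein of another cyclin E ligase, differed by 0.50 ± 0.10 (adjusted p = 0.00594). CDC25C differed the other way, by -0.67 ± 0.13 (adjusted p = 0.00491), but by -0.36 on reads no other gene overlaps (adjusted p = 0.136). In knockout cells CDC25C changed by -0.52 ± 0.10 (adjusted p = 0.0011).

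**Figure D4:**
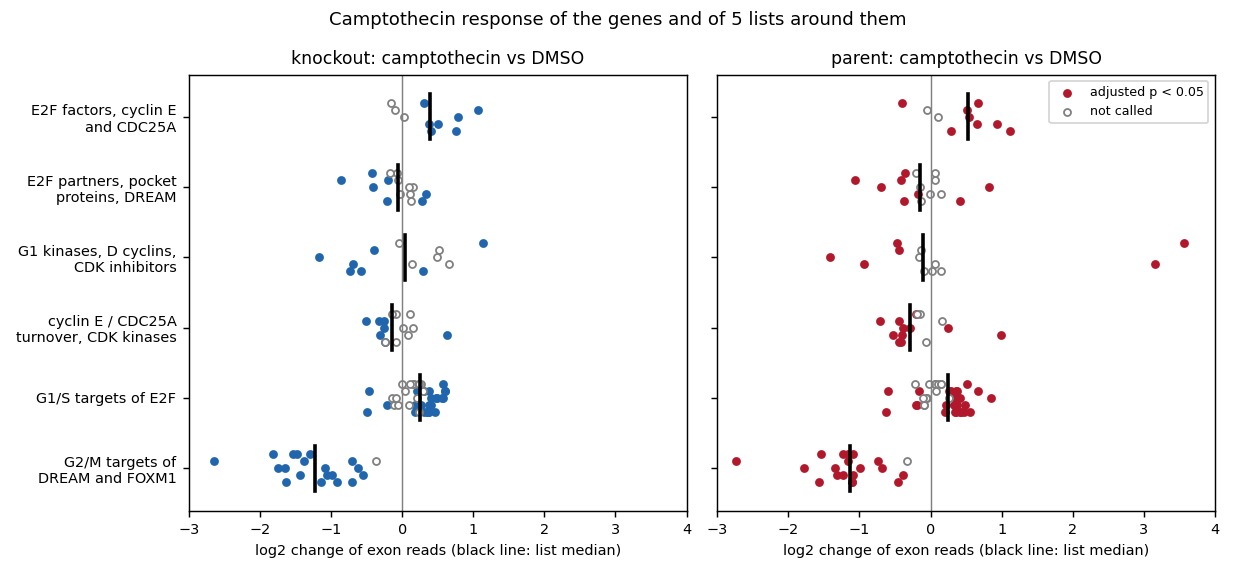
Log2 change of exon reads after camptothecin for the 10 genes and the 5 lists, in knockout cells (left) and parent cells (right), 1 point a gene, with the list median as a black line. Filled points passed an adjusted p below 0.05. The median of the 10 genes lies at 0.39 in knockout and 0.52 in parent cells, that of the G2/M list at -1.23 and -1.14.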

How the data were processed

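RNA from 12 libraries was sequenced as paired ends. The authors deposited whole-number counts of reads per gene, split into exon and intron reads, and the same counted on stretches free of other genes, per the file headers. The submitters' processing notes name STAR 2.5.4a, Picard 2.9.2, Trimmomatic 0.39 and Trim Galore 0.6.2 with hg19. Counting tool, annotation and strand setting were not given in the sources used here, and reads of overlapping genes cannot be told apart.

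Deposited counts were tested in R 4.3.3 with edgeR 4.0.16 (filterByExpr, TMM, robust quasi-likelihood fit, 1 mean per group over 12 libraries, Benjamini-Hochberg over all genes tested). Common dispersion came to 0.0137 (biological coefficient of variation 11.7%). Exon, intron and joint fits covered 23546, 19908 and 17351 genes. Each SE is the log2 change divided by the square root of the F statistic, so it restates the test. Alternatives included DESeq2 1.42.0. Scripts were tested on simulated data. Likeness used log2 CPM with a prior count of 2. All 10 genes are named, and from each list up to 2 called genes a direction with the largest change. The 10 genes and the lists were chosen with earlier results of these data known. Their counts beside all genes are therefore descriptions and not independent support.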

Additional observations from a re-analysis of the deposited data

Results flagged for a closer look

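Results listed here are those in which the camptothecin response of knockout cells differed from that of parent cells by a test of the difference itself (edgeR's quasi-likelihood interaction contrast, adjusted over all genes, 3 libraries a group). In exon reads the knockout response minus the parent response was -0.57 on the log2 scale for E2F2, -0.36 for E2F1, -0.36 for CDC25A and 0.56 for CCNE2. In intron reads the knockout response of E2F7 was larger by 0.54. The excess of the exon change over the intron change differed, knockout minus parent, by -0.57 for E2F2, -0.57 for CDC25A and -0.43 for E2F7. The exon level of parent control replicate 1 was the lowest of its group for E2F1 and E2F2 and the highest for CCNE2 and CDC25A; without it the exon differences were -0.31 for E2F1, -0.53 for E2F2, -0.39 for CDC25A and 0.41 for CCNE2, each still called (adjusted p = 0.000873, 2.81e-08, 8.54e-05 and 1.33e-05). Over all 12 fits that left out 1 library, however, the exon call ended in 4 for E2F1 and 9 for CDC25A, and the call on the exon excess ended in 8 for E2F2, 8 for CDC25A and 11 for E2F7.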

How the results depend on the processing

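For the 10 genes, no call turned its direction under any alternative run. Among the list genes named, the POLA1 change in knockout cells was 0.03 on total gene reads (adjusted p = 0.867), against -0.50 on exon reads, and the cause was not tested. With library size alone the median of all genes shifted to 0.17 in the knockout and 0.138 in the parent exon response, so changes are read relative to TMM. The share of calls that were higher then moved to 78.6% (44.0% with TMM) in knockout, 67.2% (49.7%) in parent, 46.3% (29.1%) in the difference, 72.7% (52.6%) in untreated and 69.3% (47.9%) in treated exon comparisons, and to 70.4% (46.4%), 69.5% (45.9%) and 73.5% (55.9%) in knockout, parent and untreated introns. It was 69.0% in knockout introns on the exon scale, 40.4% with no filter in the exon difference, where DESeq2 called 817 higher and 1268 lower, and 11.6% (27.8%) in the knockout joint fit with exon factors for both read classes.

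Calls over all genes in the knockout exon response numbered 5967 with library size alone and 5932 where only the 2 groups compared were fitted (3902 in the fit reported), and in untreated exon reads 2104 (3697) with only the groups compared. Of the 10 genes, 3, 2 and 0 were called in untreated exon reads (1) with library size alone, no filter and only the groups compared. The exon scale gave 3 (5) of the 10 in parent introns and 603 (1158) genes in the intron difference, where no filter gave 3 (1) of the 10. In the joint fit, exon factors for both classes gave 2053 (3259) genes in parent cells, 0 (2) of the 10 in knockout cells, and 0 (3) of the 10 and 29 (109) genes in the difference, and dropping the library block gave 0 (2) of the 10 in knockout cells. These causes were not tested.

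Leaving out 1 library at a time moved all-gene counts within 2519 to 6635 (knockout exons), 903 to 3502 (exon difference), 2388 to 4327 (untreated exons), 690 to 2057 (intron difference), 1978 to 3354 (untreated introns), 2199 to 4840 (knockout introns), 2031 to 3424 (parent joint fit), 726 to 2521 (knockout joint fit) and 15 to 623 (joint difference). Counts of the 10 genes lay within 2 to 5 (exon difference), 0 to 2 (untreated exons), 3 to 6 (parent introns), 1 to 2 (intron difference), 1 to 2 (untreated introns), 0 to 3 (knockout joint fit) and 0 to 4 (joint difference).

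Same-numbered libraries did not deviate together (correlations of -0.03 to 0.04), and the fits reported use no pairing. The labels do not say whether same-numbered libraries were handled together, and these correlations cannot decide it. With the replicate number as a block, 3723 genes were called in the knockout and 7930 in the parent exon response; of the 10 genes, E2F5 lost its parent exon call (-0.38, adjusted p = 0.0553) and E2F3 gained a parent intron call (0.27, adjusted p = 0.0223).

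Over all alternatives without a left-out library, 604 of the single-gene results stayed as they were, either called or not called. A call was lost in 22 and gained in 15. In the fits that left out 1 library, 1340 stayed as they were, and a call was lost in 85 and gained in 15. The tests rest on 3 libraries a group, and parent control replicate 1 had the greatest depth.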
